A study of Caenorhabditis elegans with 4 samples.

Results

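The flavin-containing monooxygenases of Caenorhabditis elegans are a family of 5 genes, fmo-1, fmo-2, fmo-3, fmo-4 and fmo-5. They were taken by gene name from count tables of 46881 genes, and all 5 were found and had enough reads to be tested, among 14967 genes tested in all. The tables come from RNA sequencing of worms of the wild-type Bristol N2 strain, all hermaphrodites, on 2 bacterial foods. MI-OMU01 is a natto strain of Bacillus subtilis, and OP50 is the Escherichia coli strain on which the worm is usually kept. In both groups the worms were 3 days old at transfer and fed on their lawn for 1 day, and about 200 whole worms were collected per group. Each group has 2 libraries, and the comparison asked which genes respond to feeding on the B. subtilis strain.

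Flavin-containing monooxygenases bind the flavin FAD, take electrons from NADPH, and use molecular oxygen to oxidize nitrogen or sulfur atoms of small molecules. In mammals they are known mainly for the clearance of drugs and of trimethylamine. In C. elegans the best studied member is fmo-2, whose transcript is induced by the hypoxia factor HIF-1, by fasting, by oxidative stress and by infection, and whose overexpression lengthens life. The gene fmo-4 is active in the hypodermis, is needed for survival of hypotonic stress, and is required for the longer life of worms with raised fmo-2.

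The family split on the MI-OMU01 food. Transcripts of fmo-2 and fmo-1 rose, the transcript of fmo-4 fell by a smaller factor, and fmo-3 and fmo-5 did not pass the test. The fold changes were 3.40 for fmo-2 and 2.22 for fmo-1, and fmo-4 was 1.38-fold lower. The call of fmo-4 was lost in some of the alternative settings given below, while its sign held in all of them. With edgeR's quasi-likelihood test and an adjusted p of 0.05 as the threshold, 3 of the 5 genes were past it, against 29.7% of all genes tested. The higher genes were 2 of 5, where 14.6% of all genes tested were higher, and the lower gene was 1 of 5, where 15.2% were lower. In the same 3 genes the libraries of the groups did not overlap, and 63.1% of all genes tested shared that property, so the lack of overlap alone says little about the family. Since whole worms were sequenced, fewer cells of a type and less RNA per cell cannot be told apart in any of these values.

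The libraries held 17601286 and 24381952 reads for MI-OMU01, and 16962082 and 17327035 for OP50. Reads from the family ran from 14 (fmo-2, OP50 replicate 2) to 1159 (fmo-1, MI-OMU01 replicate 2) per gene and library. Whether replicate libraries came from different cultures is not stated in the labels. The p-values therefore measure the spread between the libraries at hand, and this spread may be only technical. For each gene the quasi-likelihood fit also draws on the spread of other genes, so a p-value does not rest on that gene's own libraries alone. Levels below are given as CPM, reads relative to library size after TMM scaling (a correction for composition), when 1 gene is compared between foods. They are given as TPM, reads per base of exon scaled to the same fixed sum in each library, when different genes are compared.

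**Figure D1:**
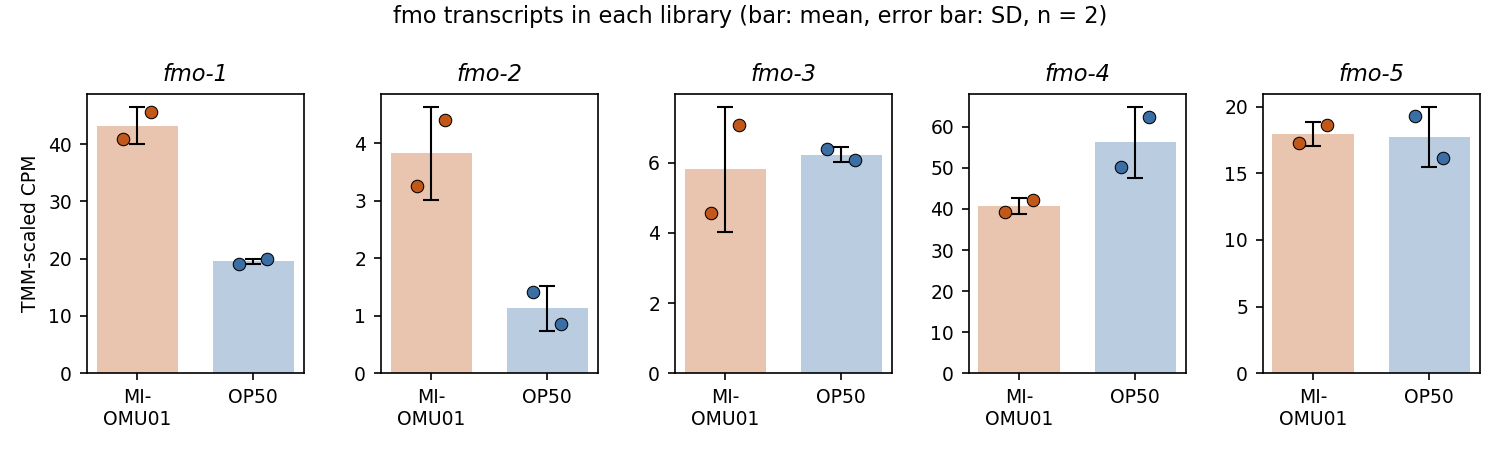
TMM-scaled CPM of the 5 fmo genes (y axes differ and start at 0) in MI-OMU01-fed and OP50-fed worms; points are libraries, bars means and error bars SD (n = 2). For fmo-1 and fmo-2 both MI-OMU01 points lie above both OP50 points, for fmo-4 both lie below, and for fmo-3 and fmo-5 the points overlap.

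The gene fmo-2 (WBGene00001477) lies on chromosome IV at 10682524 to 10684385 of the plus strand in WBcel235, with 5 exons and a coding stretch of 529 codons in the annotation. Its libraries held 60 and 112 reads in MI-OMU01-fed worms and 23 and 14 reads in OP50-fed worms. In CPM these are 3.25 and 4.40 in MI-OMU01-fed worms, against 1.41 and 0.853 in OP50-fed worms. Both MI-OMU01 libraries were above both OP50 libraries. The means were 3.83 ± 0.812 CPM in MI-OMU01-fed worms and 1.13 ± 0.395 CPM in OP50-fed worms (SD, n = 2). The log2 fold change was 1.76 (SE 0.33, 95% interval 1.06 to 2.47, edgeR adjusted p = 0.000424), above that of 97.4% of the genes tested. It was a gene of low abundance, with a mean CPM above only 21.5% of the genes tested, so counting error bears on its size. From the pooled reads alone, 172 in MI-OMU01-fed and 37 in OP50-fed worms, the ratio per raw total was 3.80 with an exact binomial 95% interval of 2.65 to 5.57. That interval covers counting error only, since pooling leaves out the spread between the libraries of a food. The reads carry no molecular identifiers, so duplicated reads could make it too narrow. The log2 fold change ran from 1.45 without OP50 replicate 2 to 2.13 without OP50 replicate 1, and the gene passed the threshold in both settings.

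The gene fmo-1 (WBGene00001476) lies on the same strand of chromosome IV at 10661857 to 10664404, 18119 bases before fmo-2, with 3 protein-coding genes between them. Its annotated transcripts have 7 or 8 exons and the same coding stretch of 533 codons. The MI-OMU01 libraries stood at 40.9 and 45.5 CPM, and the OP50 libraries at 19.1 and 19.9 CPM. Replicates of either food were much closer to each other than to the other food. The means were 43.2 ± 3.26 CPM in MI-OMU01-fed worms and 19.5 ± 0.504 CPM in OP50-fed worms (SD, n = 2). This is a log2 fold change of 1.15 (SE 0.13, 95% interval 0.87 to 1.43, edgeR adjusted p = 1.74e-06), above that of 93.9% of the genes tested. It was the most stable of the family, with log2 fold changes of 1.07 to 1.28 over every setting tried. The 95% intervals of fmo-1 and fmo-2 overlap, and whether fmo-2 rose more than fmo-1 was not tested in the fit. The permutation test of their ratio, given below, cannot decide this with 2 libraries per food.

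The gene fmo-4 (WBGene00001479) lies on the minus strand of chromosome V at 13603276 to 13606701, and its coding transcript has 7 exons and the longest coding stretch of the family, 568 codons. Its level was 39.3 and 42.2 CPM in the MI-OMU01 libraries and 50.2 and 62.4 CPM in the OP50 libraries. The groups did not overlap, but the OP50 libraries stood further apart from each other than the lower of them stood from the MI-OMU01 libraries. The means were 40.7 ± 2.02 CPM in MI-OMU01-fed worms and 56.3 ± 8.61 CPM in OP50-fed worms (SD, n = 2), a log2 fold change of -0.47 (SE 0.13, 95% interval -0.73 to -0.20, edgeR adjusted p = 0.00926). The call was lost without OP50 replicate 2 (log2 fold change -0.30, edgeR adjusted p = 0.0824), without MI-OMU01 replicate 1 (-0.42, edgeR adjusted p = 0.101) and with total counts as library sizes (-0.33, edgeR adjusted p = 0.0528), while the sign was negative in every setting tried.

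Markers of the hypodermis, the tissue in which fmo-4 is known to be active, moved with it only in part. Of 7 hypodermal markers 6 were tested, 4 were lower in MI-OMU01-fed worms and none was higher. Over all genes tested, 15.2% were lower and 14.6% higher. The 7 markers summed to 285 to 337 CPM in MI-OMU01-fed worms against 806 to 852 CPM in OP50-fed worms, and none was at 0 reads. Most of that difference came from the cuticle collagen genes rol-6 and col-19, at log2 fold changes of -3.37 and -3.01. The hypodermal transcription factor genes divided, with elt-1 at -0.43 (edgeR adjusted p = 0.0339), elt-3 at 0.21 (adjusted p = 0.352) and lin-26 at 0.18 (adjusted p = 0.229). The part of hypodermal content in the value of fmo-4 was not tested. The 5 markers of the excretory cell summed to 120 to 125 CPM in MI-OMU01-fed worms and 116 to 122 CPM in OP50-fed worms, and none passed the threshold.

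Markers of the intestine, where fmo-2 is known to act, did not move one way. On MI-OMU01, 3 of 7 were higher and 2 lower, where 14.6% of all genes tested were higher and 15.2% lower. The 7 markers summed to 1535 to 1715 CPM in MI-OMU01-fed worms against 1853 to 1941 CPM in OP50-fed worms. Most of the fall in this sum came from act-5, at a log2 fold change of -0.63 (edgeR adjusted p = 0.000138). The mean of act-5 was 574 CPM in MI-OMU01-fed worms and 888 CPM in OP50-fed worms. The esterase gene ges-1 stood at a log2 fold change of 0.42 (edgeR adjusted p = 0.0200) and the peptide transporter gene pept-1 at -1.40 (edgeR adjusted p = 6.04e-08). None of these markers was at 0 reads, and their part in the rises of fmo-1 and fmo-2 was not tested.

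The gene fmo-5 (WBGene00001480), on the minus strand of chromosome V at 899310 to 903665, had 17.3 and 18.6 CPM in the MI-OMU01 libraries and 19.3 and 16.1 CPM in the OP50 libraries. Both MI-OMU01 values lay between the OP50 values. The means were 17.9 ± 0.915 CPM in MI-OMU01-fed worms and 17.7 ± 2.25 CPM in OP50-fed worms (SD, n = 2), with a log2 fold change of 0.02 (SE 0.16, edgeR adjusted p = 0.948). The 95% interval of -0.31 to 0.34 leaves room for moderate change in either direction. The gene fmo-3 (WBGene00001478), on the plus strand of chromosome III at 10694590 to 10698861, had 4.55 and 7.07 CPM in the MI-OMU01 libraries and 6.38 and 6.09 CPM in the OP50 libraries. Here the MI-OMU01 libraries enclosed the OP50 libraries. The means were 5.81 ± 1.78 CPM in MI-OMU01-fed worms and 6.23 ± 0.205 CPM in OP50-fed worms (SD, n = 2), and the log2 fold change was -0.08 (SE 0.24, 95% interval -0.58 to 0.41, edgeR adjusted p = 0.835). The sign of fmo-3 turned to 0.05 with total counts as library sizes and to 0.18 without MI-OMU01 replicate 1, and at 84 to 180 reads per library a change within its interval was not detectable.

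**Figure D2:**
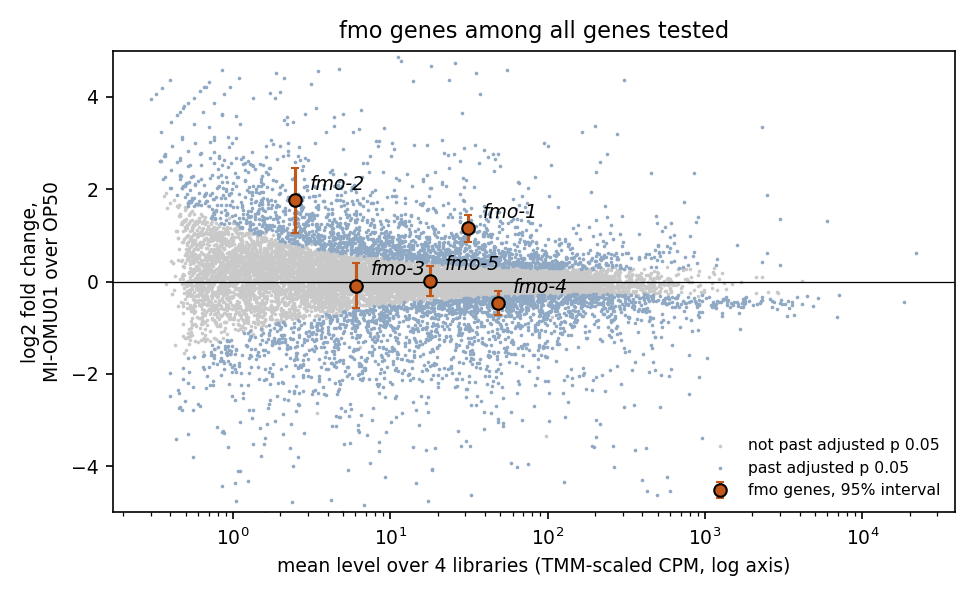
Log2 fold change of MI-OMU01 over OP50 (y) against mean TMM-scaled CPM over 4 libraries (x, log axis) for 14967 tested genes; orange points are the fmo genes with 95% intervals, and 47 genes beyond a log2 fold change of 5 in size lie outside the plot. The points of fmo-2 and fmo-1 stand at 1.76 and 1.15, above 97.4% and 93.9% of all genes tested, with no matching on abundance. The point of fmo-4 stands at -0.47, and those of fmo-3 and fmo-5 near the line of no change.

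Per length the order of the family differed between the foods. In MI-OMU01-fed worms fmo-1 (30.6 ± 1.94 TPM) and fmo-4 (29.0 ± 1.09 TPM) led, followed by fmo-5 (14.8 ± 0.577), fmo-3 (4.88 ± 1.44) and fmo-2 (3.28 ± 0.658 TPM; SD, n = 2 each). The libraries of fmo-1, at 29.27 and 32.02 TPM, overlapped those of fmo-4, at 28.2 and 29.8 TPM, so this pair did not differ beyond its spread. At the low end fmo-3, at 3.86 and 5.89 TPM, nearly met fmo-2, at 2.82 and 3.75 TPM. In OP50-fed worms fmo-4 led alone at 35.4 ± 4.84 TPM, with fmo-5 at 13.0 ± 1.86, fmo-1 at 12.2 ± 0.112, fmo-3 at 4.64 ± 0.230 and fmo-2 at 0.863 ± 0.314 TPM (SD, n = 2 each). Here the libraries of fmo-5 enclosed those of fmo-1, and the other neighbours in the order did not overlap.

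The 5 genes summed to 78.6 and 86.6 TPM in the MI-OMU01 libraries and to 64.3 and 67.9 TPM in the OP50 libraries. On the TMM-scaled CPM scale the same sums were 105.3 and 118 in the MI-OMU01 libraries against 96.4 and 105.3 in the OP50 libraries, so the groups nearly met there. Within the sum, fmo-1 held 37.3% and 37.0% in the MI-OMU01 libraries against 18.9% and 18.1% in the OP50 libraries. The share of fmo-4 was 35.9% and 34.4% in the MI-OMU01 libraries, and 49.8% and 57.2% in the OP50 libraries. The share of fmo-2 was 3.59% and 4.33% in MI-OMU01-fed worms against 1.69% and 0.943% in OP50-fed worms. These shares did not overlap between the foods, and those of fmo-3 and fmo-5 did.

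A ratio of 2 genes within a library does not depend on how libraries are scaled. The level per length of fmo-1 over that of fmo-4 was 1.04 and 1.08 in the MI-OMU01 libraries and 0.380 and 0.317 in the OP50 libraries. The mean ratio was 1.06 ± 0.0273 in MI-OMU01-fed worms and 0.348 ± 0.0444 in OP50-fed worms (SD, n = 2), and the exact two-sided permutation p was 0.333, the smallest that 2 libraries against 2 can give. For fmo-2 over fmo-1 the ratio was 0.0962 and 0.117 in the MI-OMU01 libraries against 0.0893 and 0.0520 in the OP50 libraries. The highest OP50 ratio thus came close to the lowest MI-OMU01 ratio, with the same exact permutation p of 0.333.

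**Figure D3:**
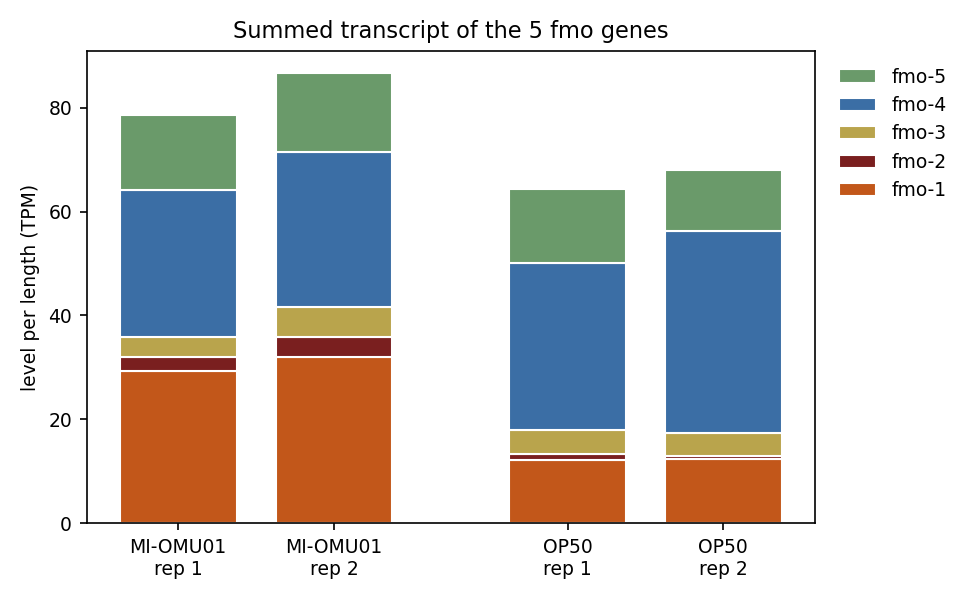
Level per length (TPM, y axis) of the 5 fmo genes stacked for each of the 4 libraries (x axis). The orange block of fmo-1 is about as tall as the blue block of fmo-4 in the MI-OMU01 libraries (ratios 1.04 and 1.08) and much shorter in the OP50 libraries (0.380 and 0.317).

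No other gene in the tables overlapped the span of any of the 5 genes on either strand, so reads of antisense or nested genes listed there do not enter the counts. The nearest protein-coding genes with reads were looked at on both sides of each member, 10 neighbours of which 9 were tested. Only K08C7.6 passed the threshold. It lies on the opposite strand, with its end 46 bases beyond the end of fmo-2, and had 23.36 and 27.03 CPM in the MI-OMU01 libraries and 17.3 and 13.2 CPM in the OP50 libraries (log2 fold change 0.73, SE 0.16, edgeR adjusted p = 0.00181). How the counting treated strand is not known here, and reads that run past the end of K08C7.6 could be counted for fmo-2, and their part in its value was not tested. The gene K08C7.7 starts 7 bases after fmo-1 on the same strand, and stood at a log2 fold change of -0.07 (SE 0.31, edgeR adjusted p = 0.898). On the far side of fmo-2 and fmo-1, K08C7.4 and K08C7.1 had log2 fold changes of -0.24 each (edgeR adjusted p = 0.492 and 0.554). Beside fmo-4, rdy-2 stood at 0.59 (edgeR adjusted p = 0.161, and 0.0473 without OP50 replicate 2) and F53F4.13 at -0.06. The neighbours of fmo-5, nas-32 and trm-2A, stood at 0.12 and -0.13, and Y39A1A.20 beside fmo-3 at 0.34 (edgeR adjusted p = 0.561).

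Of 8 genes whose products are known to control fmo-2, 3 were higher in MI-OMU01-fed worms and none lower, where 14.6% of all genes tested were higher, with a median log2 fold change of 0.25 against 0.03 over all genes tested. The gene hlh-30, for the lysosome and defence factor related to mammalian TFEB, had 264 and 269 CPM in the MI-OMU01 libraries and 178 and 223 CPM in the OP50 libraries (1.33-fold, edgeR adjusted p = 0.0101). The Mediator subunit gene mdt-15, a partner of NHR-49, rose 1.31-fold (edgeR adjusted p = 0.00983), and the FOXO gene daf-16 rose 1.31-fold (edgeR adjusted p = 0.0119). Each of these 3 calls was lost without at least 1 library. None of the 3 passed without MI-OMU01 replicate 2, 1 passed without OP50 replicate 1, 1 without MI-OMU01 replicate 1 and 2 without OP50 replicate 2.

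The other regulators did not pass. The hypoxia factor gene hif-1 stood at a log2 fold change of 0.07 (SE 0.12, edgeR adjusted p = 0.701) and the nuclear receptor gene nhr-49 at 0.12 (SE 0.10, edgeR adjusted p = 0.434). The stress factor gene skn-1 stood at -0.01 (SE 0.11, edgeR adjusted p = 0.949). The signs of hif-1 and skn-1 changed between settings. The serotonin synthesis gene tph-1 had 1.52 and 2.08 CPM in the MI-OMU01 libraries against 2.09 and 2.31 CPM in the OP50 libraries (log2 fold change -0.27, edgeR adjusted p = 0.587). The serotonin receptor gene ser-7 stood at 0.51 (SE 0.30, edgeR adjusted p = 0.226).

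Genes that share an activator with fmo-2 were looked at next. Of 8 known targets of NHR-49, 5 were higher in MI-OMU01-fed worms and none lower, where 14.6% of all genes tested were higher. Their median log2 fold change was 0.74, against 0.03 over all genes tested. This list and that of the regulators were chosen with earlier results of these data known, so their counts only describe them. The beta-oxidation gene hacd-1 had 50.1 and 67.1 CPM in the MI-OMU01 libraries and 23.9 and 21.9 CPM in the OP50 libraries, a 2.57-fold rise (edgeR adjusted p = 5.18e-07). The fatty acid desaturase genes fat-5 and fat-7 rose 2.11-fold each (edgeR adjusted p = 7.81e-06 and 0.00161). The call of fat-7 was lost without MI-OMU01 replicate 1 (edgeR adjusted p = 0.0633).

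Of 11 hypoxia and hydrogen sulfide genes 2 were higher and 2 lower, with a median log2 fold change of 0.07. These counts are near the shares over all genes tested, 14.6% higher and 15.2% lower, and are no result about the list. The sulfide quinone oxidoreductase gene sqrd-1 rose 1.69-fold, with 19.19 and 20.75 CPM in the MI-OMU01 libraries against 12.70 and 10.96 CPM in the OP50 libraries (edgeR adjusted p = 0.00115). The gene egl-9, for the oxygen-sensing hydroxylase that marks HIF-1 for destruction, rose 1.31-fold (edgeR adjusted p = 0.0159), but its adjusted p was 0.145 without OP50 replicate 1, 0.0630 without MI-OMU01 replicate 1, 0.200 without MI-OMU01 replicate 2 and 0.0557 in DESeq2. The collagen prolyl hydroxylase gene phy-2 fell 2.56-fold (edgeR adjusted p = 7.61e-08). The gene cysl-1, for a cysteine synthase-like protein that restrains EGL-9, fell 1.49-fold (edgeR adjusted p = 0.00717, and 0.149 without MI-OMU01 replicate 1).

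The supply of flavin and NADPH, on which these enzymes depend, was followed with 9 genes, of which 1 was higher and 2 lower, with a median log2 fold change of -0.29. That count is near the 29.7% of all genes tested that passed in either direction, and is no result about the list. The mitochondrial transhydrogenase gene nnt-1 rose to 63.2 and 78.0 CPM in the MI-OMU01 libraries, against 26.3 and 30.5 CPM in the OP50 libraries (2.49-fold, edgeR adjusted p = 2.74e-07). The phosphogluconate dehydrogenase gene T25B9.9 fell 1.33-fold (edgeR adjusted p = 0.00715) and the NADP-dependent isocitrate dehydrogenase gene idh-1 fell 1.23-fold (edgeR adjusted p = 0.0328). Neither fall passed without MI-OMU01 replicate 1, without MI-OMU01 replicate 2 or under scaling by total counts, and with the replicate number as a block 5 of these genes were lower.

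In C. elegans, fmo-2 has been tied to one-carbon and tryptophan metabolism, and transcripts of both were mostly lower in MI-OMU01-fed worms. Of 17 one-carbon genes 10 were lower and 1 higher, with a median log2 fold change of -0.31. Over all genes tested, 15.2% were lower and 14.6% higher. The phosphoethanolamine methyltransferase genes pmt-2 and pmt-1 moved apart, pmt-2 falling 2.71-fold (edgeR adjusted p = 2.89e-09) and pmt-1 rising 3.28-fold (edgeR adjusted p = 5.35e-10). The methionine synthase gene metr-1 had 240 and 261 CPM in the MI-OMU01 libraries against 654 and 652 CPM in the OP50 libraries, 2.61-fold lower (edgeR adjusted p = 5.29e-09). The S-adenosylmethionine synthetase gene sams-1 fell by 1.26 on the log2 scale (edgeR adjusted p = 3.17e-08). Of 7 tryptophan genes 4 were lower and none higher, beside the same shares over all genes tested, with a median log2 fold change of -0.62. On the kynurenine route, the tryptophan dioxygenase gene tdo-2 fell 1.92-fold (edgeR adjusted p = 1.63e-06). The kynureninase gene kynu-1 fell 2.39-fold and the hydroxyanthranilate dioxygenase gene haao-1 2.43-fold (edgeR adjusted p = 2.94e-06 and 2.11e-06). Not every gene of the route fell, as afmd-1 and kmo-1 stood at log2 fold changes of 0.40 and 0.16 (edgeR adjusted p = 0.285 and 0.504). These lists too were chosen with earlier results of these data known. Their counts are descriptions of lists and were not tested as sets.

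**Figure D4:**
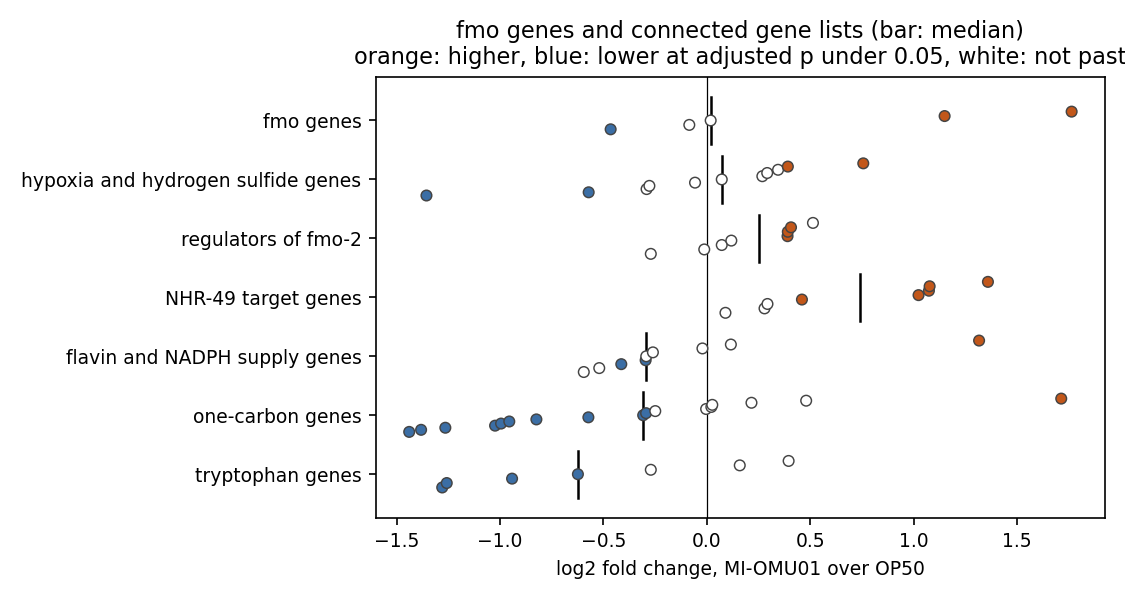
Log2 fold change of MI-OMU01 over OP50 (x axis) for each gene of the fmo family and of 6 lists (y axis); orange and blue points are genes called higher or lower at an edgeR adjusted p of 0.05, white points did not pass, and bars are medians. The NHR-49 targets lie to the right with a median of 0.74, and the tryptophan genes mostly to the left with a median of -0.62. The lists were chosen with earlier results of these data known.

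For each member past the threshold, the 5 protein-coding genes with the most similar profile over the 4 libraries were found by the Euclidean distance between centred log2(CPM + 1) values, among 14401 candidates. For fmo-2 they were T23F2.4, F10E9.12, gcy-29, ZK675.4 and tsp-1, at distances of 0.0857 to 0.127. The nearest, T23F2.4, had 2.17 and 3.10 CPM in the MI-OMU01 libraries and 0.920 and 0.365 CPM in the OP50 libraries. For fmo-1 they were T12D8.5, fipr-23, fbxl-1, C54C8.12 and tag-244, at distances of 0.0342 to 0.0659. The nearest, T12D8.5, had 67.9 and 73.6 CPM in the MI-OMU01 libraries and 31.1 and 32.9 CPM in the OP50 libraries, while C54C8.12 had 19 and 34 reads in the MI-OMU01 libraries and none in the OP50 libraries. At such low counts the pseudocount of 1 CPM sets its profile, so its place among the nearest depends on that choice. The pseudocount also flattens the profile of fmo-2, at 0.853 to 4.40 CPM, so the list for fmo-2 depends on it as well. For fmo-4 they were F17C8.9, grsp-4, Y17G9A.3, mtp-18 and twnk-1, at distances of 0.0242 to 0.0411, and of these 5 only twnk-1 passed the threshold (edgeR adjusted p = 0.0401), a call lost without OP50 replicate 2 and without either MI-OMU01 library (edgeR adjusted p = 0.263, 0.211 and 0.104). It was also lost with total counts (edgeR adjusted p = 0.106), with the filter at 5 CPM (edgeR adjusted p = 0.0620) and in DESeq2 (adjusted p = 0.103). Calls were gained by grsp-4 and F17C8.9 with the replicate number as a block (edgeR adjusted p = 0.00797 and 0.0159), with no filter on low counts (0.0282 and 0.0464) and without OP50 replicate 1 (0.00406 and 0.0117), and by grsp-4 with DESeq2 size factors (0.0475). In the list for fmo-4, Y17G9A.3 had only 0.705 to 1.64 CPM and a log2 fold change of -0.83, against -0.47 for fmo-4. The place of Y17G9A.3 thus depends on the pseudocount too. All these names describe likeness of profile over 4 libraries and nothing more.

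**Figure D5:**
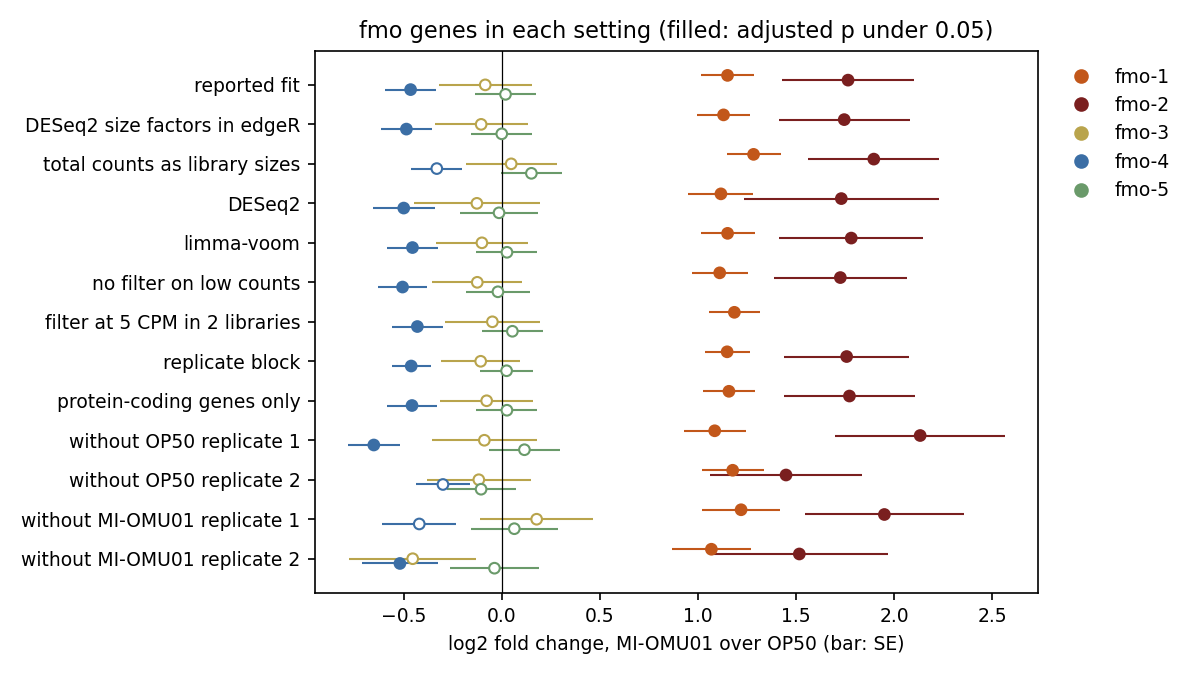
Log2 fold change of MI-OMU01 over OP50 (x axis, bars are SE) of the 5 fmo genes in the reported fit and in each alternative (y axis); filled points are past an adjusted p of 0.05. The points of fmo-1 (1.07 to 1.28) and fmo-2 (1.45 to 2.13) are filled wherever shown, those of fmo-4 (-0.65 to -0.30) are open in 3 settings, and those of fmo-3 and fmo-5 are open throughout.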

How the data were processed

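The authors deposited 1 table of unnormalized counts per library, as whole numbers of reads for each gene. Per the labels' protocols, poly(A) RNA was enriched and stranded libraries were made. Software named in the submitters' processing notes is STAR 2.7.2b, featureCounts 1.6.4, Trimmomatic 0.39, Trim Galore 0.6.5 and cutadapt 2.7, with the builds WBcel235 and ce11. Strand setting and treatment of multi-mapped reads are not given, so reads shared between fmo genes of like sequence could be split or lost. Transcripts and gene types came from Ensembl release 115 (46794 of 46881 genes matched by identifier), and printed coordinates from the files.

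Genes were filtered with filterByExpr (minimum count 10, minimum total 15), scaled with TMM and tested with edgeR 4.0.16 in R 4.3.3, a robust quasi-likelihood fit with food as the only term and Benjamini-Hochberg adjustment over 14967 genes. SE is the size of a log2 fold change over the square root of F. The procedure was tested on simulated data. TPM used the files' merged exon length. Alternatives used limma 3.58.1 and DESeq2 1.42.0. Between replicate libraries the chi-square per gene was 9.20 (MI-OMU01) and 10.6 (OP50), above sampling noise.

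The members and lists were chosen with earlier results of these data known, and the lists come from general knowledge. Named were the members, all 8 regulators, up to 3 risen and 3 fallen genes per other list, nearest neighbours and genes of similar profile. Hypodermal and intestinal markers were named after their values were seen. Of the other markers, 3 of 4 body wall muscle genes were lower, 3 of 4 pharynx genes higher and 1 of 5 germ line genes lower, and no neuron (4) or sperm (5) marker passed. Over all genes tested, 14.6% were higher and 15.2% lower.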

Additional observations from a re-analysis of the deposited data

How the results depend on the processing

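The rises of fmo-1 and fmo-2 kept their direction and passed the threshold in every alternative that tested them. With a filter of 5 CPM in 2 libraries fmo-2 was not tested. For fmo-4 the log2 fold change was -0.33 with total counts as library sizes, and ran from -0.65 to -0.30 as each library was left out. A fit without 1 library assumes that the lone sample varies like the other group. Total counts moved the median of all genes tested by 0.13, from 0.03 to 0.16, and folds are given on the TMM scale. For fmo-3 the sign turned to 0.047 with total counts, with -0.45 to 0.18 as libraries were left out. For fmo-5 it turned to -0.00054 with DESeq2 size factors, -0.014 in DESeq2 and -0.020 with no filter, and ran from -0.11 to 0.11 as libraries were left out. Of the fmo genes 2 or 3 passed in each setting.

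Over all genes 4449 passed (2178 higher, 2271 lower), from 2935 (without MI-OMU01 replicate 2) to 4571 as libraries were left out. With total counts 3206 were higher and 1706 lower, and in DESeq2 1355 and 2014. Left-out libraries gave 2 to 4 hypoxia and hydrogen sulfide genes, 0 to 2 regulators and 1 to 5 flavin and NADPH genes past the threshold. Of the last list 1 passed with total counts and 6 with the replicate block. The numbers in the titles do not show a shared source, and replicate differences correlated at 0.14 between groups over genes. The replicate block gave 5807 calls and changed no call of an fmo gene. With the longest transcript as length, fmo-1 stood at 11.99 TPM in OP50-fed worms. Among named genes that did not pass, hif-1 ran from -0.083 to 0.20 and skn-1 from -0.15 to 0.090 as libraries were left out. The gene skn-1 was at 0.12 with total counts and 0.022 with the 5 CPM filter. With total counts K08C7.7 was at 0.061, F53F4.13 at 0.071 and trm-2A at 0.0054, and left-out libraries gave -0.54 to 0.23 for K08C7.7 and -0.28 to 0.0068 for trm-2A. The cause of these shifts was not tested. Depth limits fmo-2 most, at 14 to 112 reads a library.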
